A study of Homo sapiens with 5 samples.

Results

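The cadherin superfamily was examined in 5 lines made from HMLE, human mammary epithelial cells that were immortalised for culture. The family was taken as every named gene whose symbol begins with CDH and a digit, CDHR, PCDH, CELSR or DCHS, together with FAT1 and FAT2, which gave 43 of 15093 named genes. Of these, 10 were CDH cadherins and their pseudogenes, 3 were cadherin-related (CDHR) genes, 21 were clustered protocadherins, 5 were non-clustered protocadherins and 4 belonged to the CELSR, DCHS and FAT genes. RNA from each line had been hybridised to 1 Affymetrix array. Of the lines, 4 overexpressed 1 factor each, FOXQ1, SNAI1, TWIST1 or ZEB2, all of them drivers of the epithelial to mesenchymal transition (EMT), and the fifth, the control, carried the bacterial reporter LACZ. All 5 lines share the HMLE background, no treatment was given, and whether a line was a pool of cells or 1 clone was not given in the sources used here. With 1 array per line no difference has a replicate check, so no test was run and no p-value is given.

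Cadherins are transmembrane proteins that join neighbouring cells through calcium-dependent repeats in their extracellular part. Classical cadherins bind catenins inside the cell and so connect cell contacts to actin; protocadherins mostly lack that link and are best known from neurons, where the clustered genes give cells distinct surface identities. The very large CELSR, FAT and DCHS proteins align cells within an epithelium, a property called planar cell polarity. The exchange of E-cadherin for N-cadherin is a hallmark of EMT, but the genes of both, CDH1 and CDH2, were not analysed here, since the values used cover only chromosomes 1 to 8 and part of 9.

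Values are given as deposited, with log2 as the assumed scale, and differences are taken as factor array minus LACZ. A gene was called, as higher or lower, when its difference was at least 1, which is 2-fold if the base is 2, and the brighter of both arrays was at or above a floor of 4.72, the median of the mean levels of all named genes. Array medians over all 65521 probe sets lay between 4 and 4.05. As a check of the labels, FOXQ1 had its highest level on its own array, at 6.23, where no other array exceeded 3.61. TWIST1 was at 9.96 on its own array, but the FOXQ1, SNAI1 and ZEB2 arrays had 8.2, 9.18 and 8.55 as well, against 5.55 on LACZ. ZEB2 was at 7.39 on its own array, at 6.85 on FOXQ1, 6.23 on SNAI1 and 7.03 on TWIST1, and at 3.57 on LACZ. These 2 genes therefore set the factor arrays apart from LACZ, but their leads on their own arrays over the next, SNAI1 for TWIST1 and TWIST1 for ZEB2, were under 2-fold and do not tell those labels apart. SNAI1 itself was not analysed here. The HMLE identity was checked on 12 measured epithelial markers, of which EPCAM, CLDN1, ESRP1 and SFN were at 14.85, 12.22, 14.22 and 14.46 on LACZ, while ELF3, PROM1 and KIT were below the floor on all 5 arrays.

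Only part of the family reached the floor, which is a median level and not a limit of detection. On at least 1 array 20 of the 43 genes (46.5%) reached the floor, against 57% of all named genes, and 23 stayed below it on all 5 arrays. In all, 9 genes (20.9%) were called on at least 1 factor array, against a background of 23.2% of all named genes, so the family as a whole was called about as often as all named genes. The 9 were CDH18, CDH10, PCDH7, PCDH18, PCDH1, PCDHB12, PCDHB13, CELSR2 and FAT2, and none was called in opposite directions on different arrays. CDH18 and PCDH18 were higher on all 4 factor arrays (4.65% of the family, background 2.16%), and CELSR2, FAT2 and PCDH1 were lower on all 4 (6.98%, background 2.27%). Since all 4 differences share the LACZ array, a single deviation on that array alone would place a gene on the same side 4 times. With a floor at percentile 75 of the mean gene levels, 7.89, only CDH18 kept its call on all 4 arrays, since PCDH18, CELSR2, FAT2 and PCDH1 were dimmer than that on every array.

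**Figure D1:**
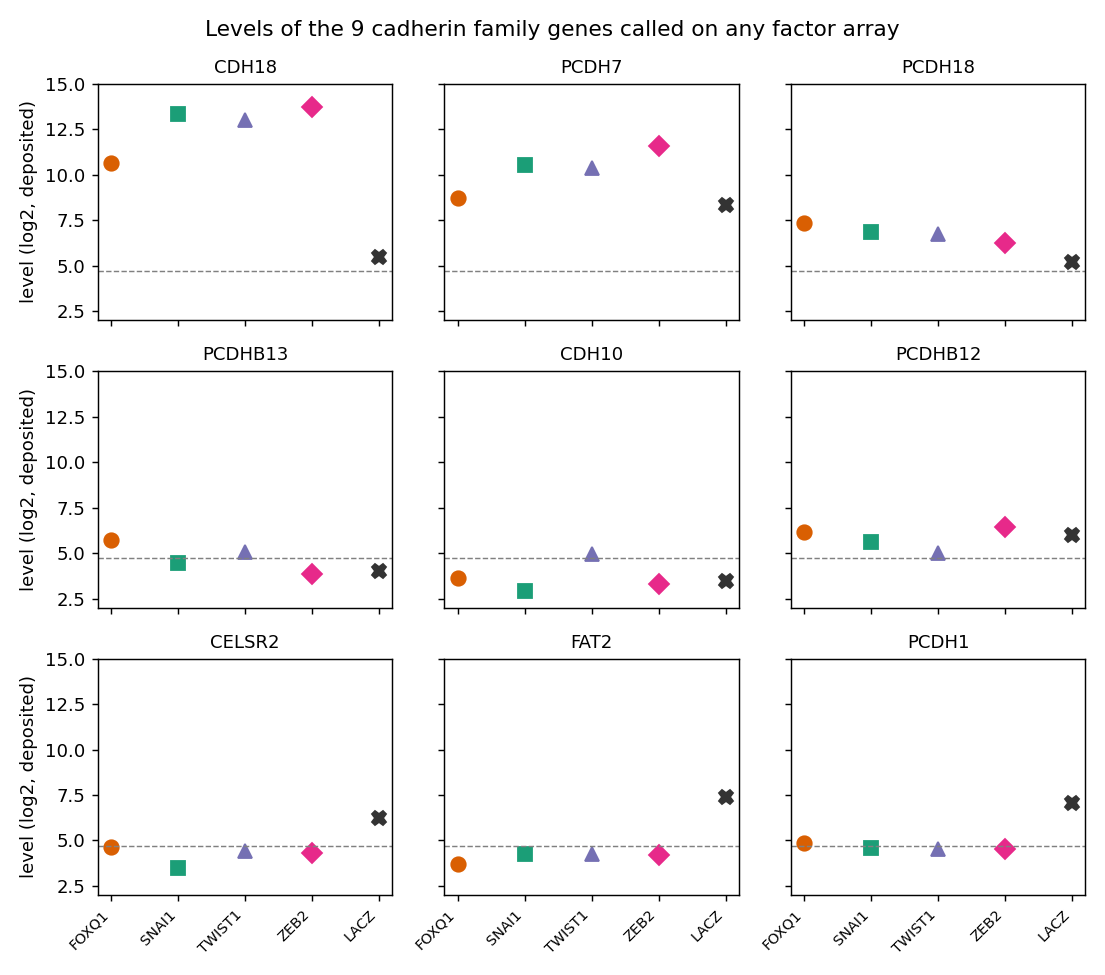
Level (log2, deposited scale) of the 9 cadherin family genes called on any factor array, 1 point per array, with the 4 factor arrays left of LACZ and the level floor of 4.72 as a dashed line. CDH18 lies at 10.66 or above on every factor array and at 5.48 on LACZ, while CELSR2, FAT2 and PCDH1 are highest on LACZ.

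By array, 3 genes were higher and 3 lower on FOXQ1 (6.98% each, backgrounds 6.49% and 6.95%), and likewise 3 and 3 on SNAI1 (backgrounds 4.25% and 7.96%). On TWIST1, 5 were higher and 4 lower (11.6% and 9.3%, backgrounds 7.21% and 4.21%), and on ZEB2 3 were higher and 3 lower (6.98% each, backgrounds 6.34% and 4.33%). Over the 43 genes the median difference was 0.04 on the FOXQ1 array, -0.16 for SNAI1, 0 for TWIST1 and 0.04 for ZEB2, beside 0, -0.09, 0 and 0 over all named genes. Over the 20 genes that reached the floor the medians were 0.08, -0.31, 0 and 0.15, beside -0.01, -0.16, 0.03 and 0.02 over all named genes that did. Fewer cells that express a gene and less RNA per cell cannot be told apart in such bulk samples.

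**Figure D2:**
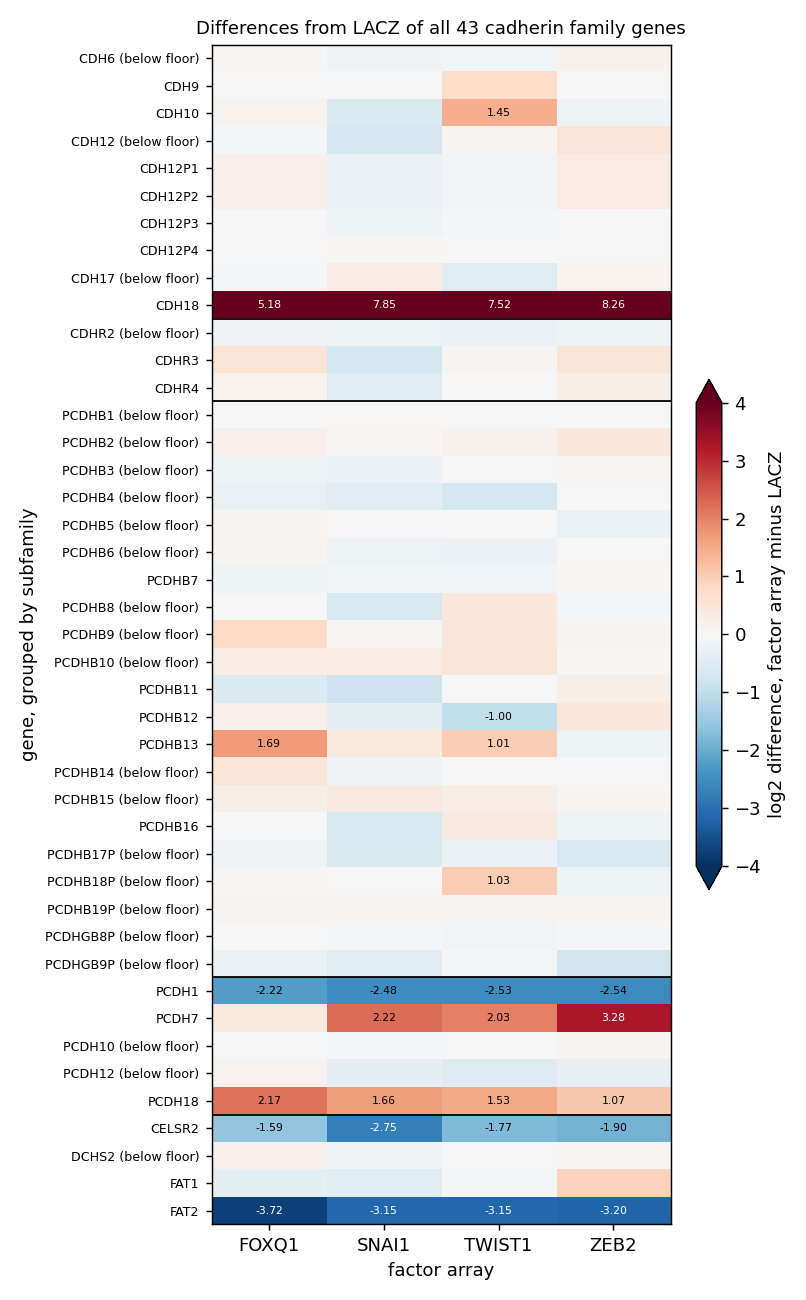
Log2 difference of each factor array from LACZ for all 43 cadherin family genes, grouped by subfamily with black lines between groups. Colours end at 4 in either direction, values of at least 1 in size are printed, and genes below the level floor on all 5 arrays are marked. Rows with a printed value on all 4 arrays are CDH18, PCDH1, PCDH18, CELSR2 and FAT2, with PCDH7 printed on 3. Colour is pale where the value is near 1, as for PCDH18 on ZEB2 (1.07).

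The promoters of the 6 genes called on at least 3 factor arrays are shown, because SNAI1 and ZEB2 are zinc finger factors known to bind the E-box letters CACCTG and repress epithelial genes. Each is the 250 bases before the start of transcription listed by RefSeq (GRCh38.p14), 5′ to 3′ on the gene's own strand, with CACCTG on either strand in capitals.
CDH18 (chr5:20575714-20575963, minus strand): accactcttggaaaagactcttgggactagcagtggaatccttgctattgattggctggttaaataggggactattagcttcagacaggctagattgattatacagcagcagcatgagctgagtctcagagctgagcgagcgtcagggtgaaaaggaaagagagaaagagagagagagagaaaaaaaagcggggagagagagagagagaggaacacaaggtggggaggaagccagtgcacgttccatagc
PCDH7 (chr4:30720119-30720368, plus strand): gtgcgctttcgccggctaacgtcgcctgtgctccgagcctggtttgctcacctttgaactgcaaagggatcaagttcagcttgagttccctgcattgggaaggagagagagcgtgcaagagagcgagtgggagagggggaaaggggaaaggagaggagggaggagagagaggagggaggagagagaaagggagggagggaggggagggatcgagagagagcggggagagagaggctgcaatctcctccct
PCDH18 (chr4:137532495-137532744, minus strand): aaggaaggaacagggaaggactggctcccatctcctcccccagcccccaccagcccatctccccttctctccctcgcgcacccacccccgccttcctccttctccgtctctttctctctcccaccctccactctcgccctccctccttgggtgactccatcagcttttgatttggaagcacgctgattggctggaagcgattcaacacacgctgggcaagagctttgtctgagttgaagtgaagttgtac
CELSR2 (chr1:109249289-109249538, plus strand): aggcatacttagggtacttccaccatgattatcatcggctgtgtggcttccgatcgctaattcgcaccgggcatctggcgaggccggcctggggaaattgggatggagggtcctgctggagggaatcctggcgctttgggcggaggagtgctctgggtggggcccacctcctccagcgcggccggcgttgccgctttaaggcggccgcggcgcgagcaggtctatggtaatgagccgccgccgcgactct
FAT2 (chr5:151591332-151591581, minus strand): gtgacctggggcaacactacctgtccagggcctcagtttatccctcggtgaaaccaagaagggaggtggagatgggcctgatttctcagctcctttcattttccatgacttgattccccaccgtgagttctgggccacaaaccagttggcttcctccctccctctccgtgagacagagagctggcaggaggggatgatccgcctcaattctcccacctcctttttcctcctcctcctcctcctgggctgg
PCDH1 (chr5:141869628-141869877, minus strand): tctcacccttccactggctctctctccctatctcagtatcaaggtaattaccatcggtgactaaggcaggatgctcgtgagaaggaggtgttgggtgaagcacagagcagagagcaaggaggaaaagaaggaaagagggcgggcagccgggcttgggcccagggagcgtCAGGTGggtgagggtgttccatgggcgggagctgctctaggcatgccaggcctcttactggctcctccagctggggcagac
One of the 6 windows held the E-box letters, that of PCDH1, which reads CAGGTG on the printed strand, and its last base lies 76 bases before the start. The windows of CELSR2 and FAT2, lower on all 4 arrays like PCDH1, held none, and neither did those of the higher genes CDH18, PCDH7 and PCDH18. Over all 27305 genes with a listed promoter 17.5% held these letters in the same window, and of the 29 family genes with one 3 did (10.3%), the others being PCDHB1 and CDHR2. A start further out exists in the annotation for PCDH1 and FAT2, 8783 and 3488 bases upstream of the one shown, and CDH18 has 3 listed starts, of which the outermost is printed. The CELSR2 window was rich in CG pairs, with 23 and a GC content of 64.4%, against 4 pairs and 48.4% for CDH18.

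Among the CDH cadherins measured, only CDH18 was called on all 4 factor arrays. CDH18 (chromosome 5, 19471296 to 20575713), a classical cadherin of type II known mainly from the nervous system, had levels of 10.66 in FOXQ1, 13.33 in SNAI1, 13 in TWIST1 and 13.74 in ZEB2 cells, against 5.48 in LACZ cells. All 4 factor arrays were far above LACZ, with FOXQ1 the lowest of them. The differences from LACZ were 5.18, 7.85, 7.52 and 8.26, and FOXQ1 lay 2.67 below SNAI1, 2.34 below TWIST1 and 3.08 below ZEB2. SNAI1, TWIST1 and ZEB2 lay within 0.74 of each other. Because the LACZ level was close to the floor, these differences are not exact ratios.

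CDH18 is 1 of 5 CDH cadherin genes measured on the short arm of chromosome 5, in a stretch of 11.9 Mb (19471296 to 31329146), and its neighbours did not share its pattern. CDH10 (24487100 to 24644978), another type II cadherin, had levels of 3.62 in FOXQ1, 2.89 in SNAI1, 4.93 in TWIST1 and 3.27 in ZEB2 cells, against 3.48 in LACZ cells. TWIST1 was the only array with CDH10 above the floor, and it lay 1.31 above FOXQ1, 2.04 above SNAI1, 1.66 above ZEB2 and 1.45 above LACZ. It was the 1 family gene that set TWIST1 apart from all 4 other arrays in the higher direction (background 0.358%). Since the other 4 values lay below the floor, these differences are uncertain in size. CDH9, also of type II, was at 4.21 on FOXQ1, SNAI1, ZEB2 and LACZ alike and at 4.93 on TWIST1, a difference of 0.72 that was not called. CDH12 and CDH6 were below the floor on all 5 arrays, with differences between -0.67 and 0.53 for CDH12 and between -0.14 and 0.17 for CDH6.

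The 4 pseudogenes of CDH12 were above the floor on every array although CDH12 itself was not. CDH12P1 and CDH12P2 had the same value on each array, 8.11 in FOXQ1, 7.65 in SNAI1, 7.78 in TWIST1 and 8.22 in ZEB2 cells, against 7.9 in LACZ cells, so the pair is not 2 separate measurements. CDH12P3 lay between 7.12 and 7.31, and CDH12P4 was at 6.95 on SNAI1 and at 6.89 on the other 4 arrays. CDH12P4 had the smallest range over the 5 arrays, 0.06, of the family genes that reached the floor and were called nowhere. The signal of such copies may not be separable from that of related sequences. None of the 4 was called.

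The non-clustered protocadherins moved in both directions. PCDH7 (chromosome 4, 30720369 to 31146800), a homophilic adhesion protein of the delta type, had levels of 8.71 in FOXQ1, 10.53 in SNAI1, 10.34 in TWIST1 and 11.59 in ZEB2 cells, against 8.31 in LACZ cells. It was higher on SNAI1, TWIST1 and ZEB2, by 2.22, 2.03 and 3.28, while FOXQ1 differed by 0.4 and was not called. The ZEB2 array lay 1.06 above SNAI1, 1.25 above TWIST1 and 2.88 above FOXQ1, which made PCDH7 the 1 family gene that set ZEB2 apart in the higher direction (background 0.583%). No family gene set FOXQ1 or SNAI1 apart (backgrounds 1.19% higher and 1.53% lower for FOXQ1, 0.285% and 1.23% for SNAI1), and none did so in the lower direction for TWIST1 (0.0663%) or ZEB2 (0.179%).

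PCDH18 (chromosome 4, 137518918 to 137532494), also of the delta type, had levels of 7.35 in FOXQ1, 6.84 in SNAI1, 6.71 in TWIST1 and 6.25 in ZEB2 cells, against 5.18 in LACZ cells. Its differences were 2.17, 1.66, 1.53 and 1.07, so the ZEB2 value lay just past the threshold. Among the factor arrays PCDH18 was highest on FOXQ1 and lowest on ZEB2, while PCDH7 and CDH18 were lowest on FOXQ1 and highest on ZEB2; TWIST1 lay below SNAI1 for all 3 genes. For PCDH18 neighbouring arrays, from ZEB2 through TWIST1 and SNAI1 to FOXQ1, were 0.46, 0.13 and 0.51 apart, each under 2-fold, and only FOXQ1 and ZEB2 were called apart, by 1.1.

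PCDH1 (chromosome 5, 141853090 to 141878410), a protocadherin of airway and other epithelia, had levels of 4.84 in FOXQ1, 4.58 in SNAI1, 4.53 in TWIST1 and 4.52 in ZEB2 cells, against 7.06 in LACZ cells. The factor arrays lay together near the floor, with differences of -2.22, -2.48, -2.53 and -2.54 from LACZ, and are not ordered among themselves at that level. PCDH10, and PCDH12, which is known from endothelial cells, were below the floor on all 5 arrays, with levels of 3.48 to 3.67 for PCDH10 and 3.74 to 4.4 for PCDH12.

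The large polarity cadherins CELSR2 and FAT2 were lower, and FAT1 was not. CELSR2 (chromosome 1, 109249539 to 109275751), a receptor-like cadherin related to fly Flamingo, had levels of 4.62 in FOXQ1, 3.46 in SNAI1, 4.44 in TWIST1 and 4.31 in ZEB2 cells, against 6.21 in LACZ cells. All 4 factor arrays lay under the floor, and the differences were -1.59, -2.75, -1.77 and -1.9. FAT2 (chromosome 5, 151504092 to 151594819), a giant cadherin of squamous and basal epithelia, had levels of 3.69 in FOXQ1, 4.26 in SNAI1, 4.26 in TWIST1 and 4.21 in ZEB2 cells, against 7.41 in LACZ cells. Its differences were -3.72, -3.15, -3.15 and -3.2, the largest negative ones in the family. As with PCDH1, values at the bottom of the scale have no measured order, so these are not exact ratios.

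FAT1 (chromosome 4, 186587794 to 186726696), a giant cadherin that regulates actin and the Hippo pathway, had levels of 13.31 in FOXQ1, 13.21 in SNAI1, 13.61 in TWIST1 and 14.63 in ZEB2 cells, against 13.7 in LACZ cells. It was bright on every array, and its difference of 0.93 on ZEB2 lay just under the threshold. ZEB2 was 1.32 above FOXQ1, 1.42 above SNAI1 and 1.02 above TWIST1. DCHS2, a Dachsous cadherin of the kind that binds FAT proteins, was below the floor throughout, between 2.98 and 3.31. CELSR3 shared its probe set with another symbol and was therefore not analysed here.

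The clustered protocadherins that were analysed, most of them beta genes, were mostly below the floor. These genes lie side by side on the long arm of chromosome 5, and their probe sets covered 16 protein-coding beta genes, 3 beta pseudogenes and 2 gamma pseudogenes. Of the 16, 5 reached the floor on any array, and of the 5 pseudogenes none did. The median level of the 16 was 3.9 in FOXQ1, 3.68 in SNAI1, 3.84 in TWIST1 and 3.78 in ZEB2 cells, against 3.77 in LACZ cells. The 16 alpha symbols were joined on 1 probe set, which was not used. No protein-coding gamma gene was among the genes analysed either, so these levels do not cover the alpha genes or the coding gamma genes.

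**Figure D3:**
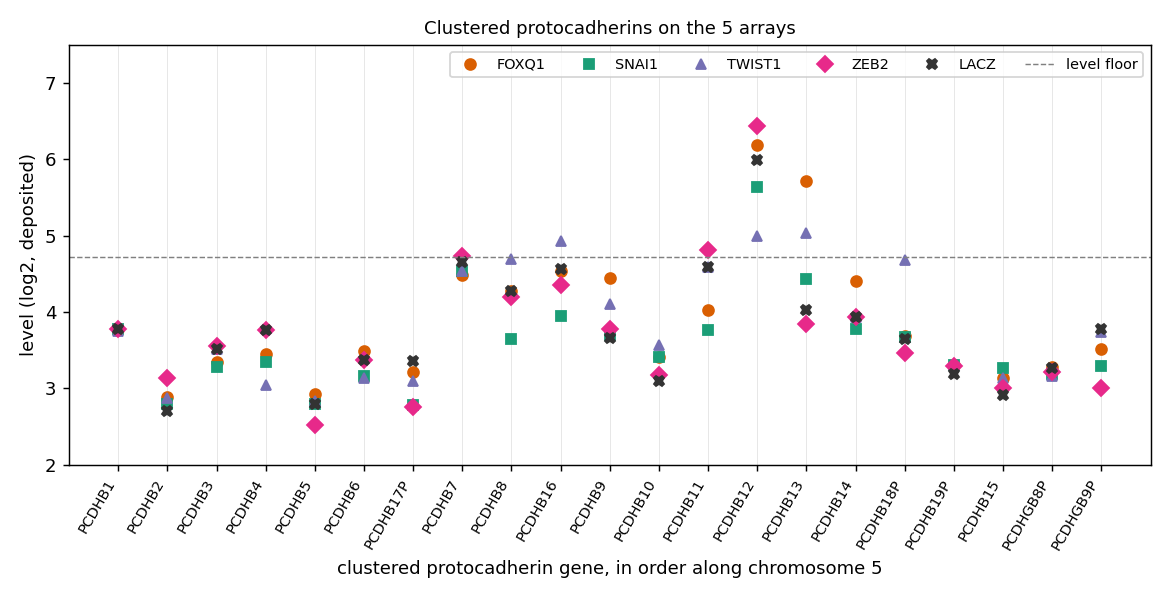
Level (log2, deposited scale) of the 21 clustered protocadherin genes, placed in their order along chromosome 5 and not to scale, with 1 marker per array and the level floor of 4.72 as a dashed line. Most markers lie under the line on all arrays; PCDHB12 lies above it on all 5 and PCDHB13 on FOXQ1 and TWIST1.

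PCDHB13 (chromosome 5, 141213919 to 141218979) had levels of 5.72 in FOXQ1, 4.43 in SNAI1, 5.04 in TWIST1 and 3.84 in ZEB2 cells, against 4.03 in LACZ cells. It was higher on FOXQ1 by 1.69 and on TWIST1 by 1.01, and the other differences were 0.4 and -0.19. Its neighbour PCDHB12 (141208719 to 141212571) was above the floor on all 5 arrays, at 6.18 in FOXQ1, 5.63 in SNAI1, 4.99 in TWIST1 and 6.43 in ZEB2 cells, against 5.99 in LACZ cells. TWIST1 was the lowest array, and its difference of -1 lay exactly at the threshold and was -0.93 after quantile normalization and -0.91 after loess scaling, which ended the call. PCDHB18P, a pseudogene, differed by 1.03 on TWIST1 but reached only 4.68, just under the floor. Beta protocadherins are similar in sequence, so part of a signal may come from a related gene.

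The remaining clustered genes that reached the floor were PCDHB7, PCDHB11 and PCDHB16, and none of them was called. PCDHB7 lay between 4.49 and 4.73 on the 5 arrays. Most clustered protocadherin promoters of vertebrates carry a conserved element with a CGCT core. Those letters, on either strand, were in the 250 bases before the start of 13 of 14 beta genes with a listed promoter (92.9%) and of 64.2% of all genes. The windows of 12 of the 15 other family genes with a listed promoter held them too (80%), so they were not particular to the beta genes. The windows of PCDHB12 and PCDHB13 held 1 each. Of the 11 regulators and partners of clustered protocadherins that were measured, 1 was higher and 0 were lower on all 4 factor arrays (list medians 0.69, 0.02, 0.43 and 0.26, the arrays in the order FOXQ1, SNAI1, TWIST1, ZEB2). Over all named genes 2.16% were higher and 2.27% lower on all 4, with medians of 0, -0.09, 0 and 0. The higher gene was FYN, a kinase, with levels of 11.94, 10.23, 10.83 and 10.65 on those arrays, against 9.01 on LACZ. NCSTN, PTK2B, SETDB1 and PTK2 were called on some arrays only. NCSTN was higher on FOXQ1, TWIST1 and ZEB2, with differences of 1.56, 1.72 and 1.66. PTK2B was higher on TWIST1 and ZEB2, by 1.21 and 1.96, and SETDB1 on TWIST1, by 1.04. PTK2 was lower on SNAI1 and ZEB2, with differences of -1.4 and -1.2. The cohesin subunit RAD21 was called on none, at 6.01, 4.92, 5.38 and 5.31, against 5.2 on LACZ.

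The cadherin-related genes had no call. CDHR3, known as a receptor of rhinovirus C in the airway, had levels of 6.11 in FOXQ1, 4.88 in SNAI1, 5.67 in TWIST1 and 6.05 in ZEB2 cells, against 5.57 in LACZ cells. SNAI1 was the lowest array, and FOXQ1 and ZEB2 lay more than 2-fold above it. CDHR3 was the 1 family gene with more than 1 probe set, and the other lay between 3.19 and 3.65, under the floor on every array. CDHR4 lay between 4.04 and 4.73, and CDHR2, of intestinal microvilli, between 3.83 and 4.05.

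Between pairs of factor arrays, the share of family genes called apart lay on either side of the background. FOXQ1 and SNAI1 were called apart for 4 family genes (9.3%, background 11%), FOXQ1 and TWIST1 for 4 (background 7.68%), and FOXQ1 and ZEB2 for 5 (11.6%, background 10.4%). SNAI1 and TWIST1 were apart for 1, CDH10 (2.33%, background 8.31%), and SNAI1 and ZEB2 for 4 (background 7.59%). TWIST1 and ZEB2 were apart for 5 (11.6%, background 4.94%), namely CDH10 and PCDHB13, higher on TWIST1, and FAT1, PCDH7 and PCDHB12, lower on TWIST1. Over the 4 factor arrays 9 family genes had a range of at least 2-fold (20.9%, background 21.5%).

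Genes of proteins that bind cadherins or lie in the same junctions were read beside them, at the RNA level. Of 12 measured catenins and cadherin-bound proteins, 1 was higher and 2 were lower on all 4 factor arrays (backgrounds 2.16% and 2.27%). The list median was -0.19 for the FOXQ1 array, -0.85 for SNAI1, -0.02 for TWIST1 and -0.07 for ZEB2, where all named genes had -0.09 for SNAI1. The higher gene was NECTIN3, an immunoglobulin-type adhesion protein of adherens junctions, at 12.8, 11.15, 11.89 and 11.81 on FOXQ1, SNAI1, TWIST1 and ZEB2, against 6.57 on LACZ. AFDN, the afadin that anchors nectins to actin, was at 10.37, 8.93, 10.01 and 9.93, against 11.73 on LACZ. Against LACZ it was thus lower on all 4 factor arrays, where NECTIN3 was higher. Among the factor arrays both genes were highest on FOXQ1 and lowest on SNAI1. PTPRF, a receptor phosphatase, was at 7.56, 4.99, 7.62 and 7.56, against 9.64 on LACZ. Of the catenin genes on the list, CTNNB1 and CTNNA1 reached the floor and were not called. CTNNA2 and CTNND2 stayed below the floor on every array, and CTNNAL1 was not measured. CTNNB1, beta-catenin, differed by 0.26, 0.16, 0.67 and 0.15, and CTNNA1, alpha-catenin, by 0.21, -0.69, 0.3 and 0.03. PKP4, an armadillo-repeat protein of the plakophilin and catenin group, was lower on FOXQ1 and SNAI1, with differences of -1.2 and -1.02, and ANK2, an ankyrin, was higher on SNAI1 and ZEB2, at 5.3 and 5.56 against 4.13 on LACZ.

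**Figure D4:**
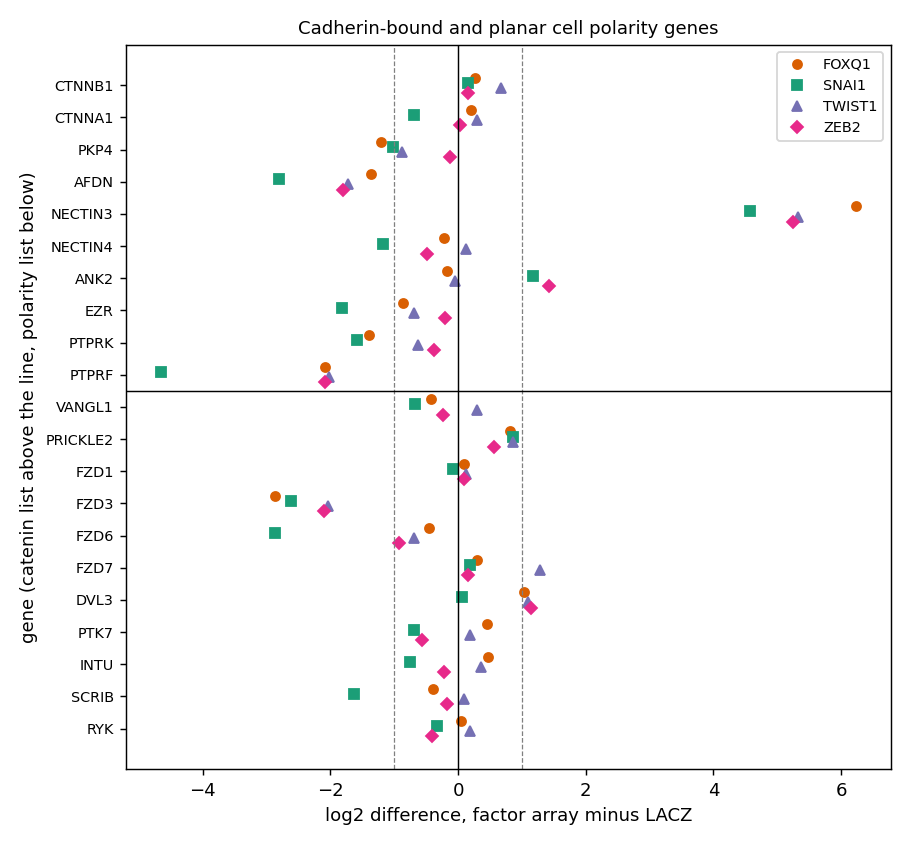
Log2 difference from LACZ of the cadherin-bound genes (above the line) and planar cell polarity genes (below it) that reached the level floor on any array, with 1 marker per factor array and dashed lines at a difference of 1 in either direction. NECTIN3 lies between 4.58 and 6.23, while CTNNB1 and CTNNA1 lie within the dashed lines on all 4 arrays.

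Planar cell polarity partners of CELSR and of FAT and DCHS numbered 13 measured genes. Of these, 0 were higher and 1 was lower on all 4 arrays (backgrounds 2.16% and 2.27%), with medians of 0.05, -0.34, 0.19 and -0.22. The lower gene was FZD3, a Frizzled receptor that works with CELSR proteins in axon tracts of mice, at 4.2 in FOXQ1, 4.44 in SNAI1, 5.02 in TWIST1 and 4.96 in ZEB2 cells, against 7.06 in LACZ cells. FZD6, another Frizzled, was lower on SNAI1 alone, at 11.6 against 14.46 on LACZ, and SCRIB, a scaffold of cell polarity, likewise, at 4.28 against 5.91. DVL3, a Dishevelled adaptor, was higher on FOXQ1, TWIST1 and ZEB2, at 8.11, 8.17 and 8.23, against 7.08 on LACZ, while VANGL1, a core polarity protein, was called on none.

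Of 18 measured adhesion molecules of the immunoglobulin type and EPCAM, 2 were higher on all 4 arrays, CADM3 and NECTIN3, and 3 were lower, EPCAM, CD47 and IGSF3. The backgrounds were 2.16% and 2.27%. NECTIN3 is the same gene that was counted among the cadherin-bound proteins. The list medians were 0.09, 0, 0.13 and 0.09. IGSF3 was at 3.37 in FOXQ1, 2.93 in SNAI1, 3.26 in TWIST1 and 2.57 in ZEB2 cells, against 5.91 in LACZ cells. CNTN3, a contactin, was lower on FOXQ1, at 4.56, and higher on TWIST1, at 7.34, against 6.04 on LACZ.

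Markers of cell types moved as follows beside these genes. Over all named genes 2.16% were higher and 2.27% lower on all 4 factor arrays. Of the 12 measured epithelial markers, 7 were lower and 0 higher on all 4 arrays, and their log2 levels summed to between 63.7 and 73.7 on the factor arrays, against 118.5 on LACZ, with median differences of -3.2, -4.84, -2.98 and -2.7 (FOXQ1, SNAI1, TWIST1, ZEB2). MUC1 went the other way on FOXQ1, SNAI1 and TWIST1, by 3.25, 1.57 and 2.55. Of 7 fibroblast markers, 4 were higher on all 4 arrays, with sums of 59.7 to 69.2 on the factor arrays and 40.3 on LACZ and medians of 3.47, 3.02, 4.27 and 1.98. Of 18 neuronal markers, 1 (MAP2) was higher and 1 (VSNL1) lower on all 4, with 9 below the floor throughout and sums of 79.8 to 87.2 on the factor arrays and 78 on LACZ. NEFL, STMN2 and GAP43 were below the floor on all 5 arrays. UCHL1, of the same list, was higher on the SNAI1, TWIST1 and ZEB2 arrays, with differences of 3.64, 6.47 and 10.28. CDH18 and PCDH7 were likewise highest on these 3 arrays. MAP2 had a different order, with its highest level, 14.65, on FOXQ1, the factor array where CDH18 and PCDH7 were lowest. Its levels on the remaining factor arrays lay between 9.54 and 10.3, against 6.2 on LACZ. A link between these markers and the 2 cadherin genes was not tested. SYN2 was higher on FOXQ1, by 1.86, and SCN2A on ZEB2, by 1.33. Of 7 endothelial markers 4 and of 11 leukocyte markers 8 were below the floor on all 5 arrays, among them KDR, TEK and CD2, and neither list had a gene called on all 4. Single markers of both did move: the endothelial ESM1 was at 10.51 on ZEB2, against 7.02 on LACZ, and the leukocyte LAPTM5 differed by 4.27 on FOXQ1, 1.11 on TWIST1 and -2.4 on ZEB2. Endothelial sums were 28.6 to 32.3 on the factor arrays and 28.4 on LACZ, and leukocyte sums 42.4 to 48.5 and 45.3. The median differences of the neuronal, endothelial and leukocyte lists lay between -0.17 and 0.15 on all 4 arrays. The part of these markers in the differences of CDH18, PCDH18, CELSR2, FAT2 and PCDH1 was not tested.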

How the data were processed

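Each of 5 HMLE-derived lines was measured on 1 Affymetrix array, and lines were grouped by the sample labels. The authors deposited 1 table of log2 values per probe set; base 2 is assumed from the range of 1.99 to 19.73, since neither base nor normalization is stated. Per the submitters' processing notes, the Transcriptome Analysis Console was used with genome build hg38. How its settings bear on dim genes is not known, and precision is limited by the number of arrays.

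Of 65521 probe sets 16126 had 1 gene symbol in the platform annotation, 419 several and 48976 none. Symbols were updated through gene identifiers to RefSeq GRCh38.p14, in which 16056 were found; 221 on another chromosome were left out. Each gene took its brightest probe set. No detection calls were available to set the floor. The call procedure was tested on simulated data, with equal shifts on all 4 factor arrays in genes far above the floor. The noise in it was a chosen value, so the test does not bear on calls near the floor. The genes, lists and named-gene rule were chosen with earlier results of these data known. The rule covered all genes called on any factor array, the family's large cadherins and the steadiest uncalled genes. It also covered list members called on all 4 arrays or with large differences. Some uncalled list genes, such as CTNNB1, RAD21 and VANGL1, were named outside the rule. Alternatives were quantile, median-gene and loess scaling (span 0.3), no floor or a floor at percentile 75, 3-fold and 1.5-fold thresholds, the median of probe sets, no RefSeq match, protein-coding genes only and 3 of 4 factor arrays. Tools were Python 3.11.15 with pandas 2.3.3 and numpy 2.4.6, statsmodels 0.14.6 for loess and matplotlib 3.10.9 for plots.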

Additional observations from a re-analysis of the deposited data

How the results depend on the processing

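Of 386 counts and medians recomputed under the alternatives, 366 stayed near the main value, counts within 1.5 times and medians within a difference of log2 of 1.5. That tolerance was wide beside the medians themselves, and the floor does not enter a median. Many counts were 0 both in the main setting and under the alternatives. The 366 are therefore not a measure of how firm the results are. The median on SNAI1 was -0.16 as deposited and -0.07 when centred on the median gene, and after quantile normalization that on FOXQ1 was 0.08 and that on TWIST1 0.04. The 176 recomputed single differences were those of the called genes and of FAT1 and DCHS2, also on arrays where a gene was not called. None that was called as deposited changed sign. The median of probe sets could not alter these differences, since each of these genes had 1 probe set. Under the scaling and probe set alternatives 1 named call ended, that of PCDHB12 on TWIST1, at -0.93 after quantile normalization and -0.91 after loess scaling. Calls were also gained: after quantile normalization 6 family genes were higher on TWIST1, against 5 as deposited. The floor mattered most. At percentile 75, a level of 7.89, the genes lower on each array, lower on all 4 and in the CELSR, DCHS and FAT and non-clustered groups all came to 0, because CELSR2, FAT2 and PCDH1 were dimmer than that on LACZ. Then 1 gene was higher on FOXQ1, 2 were higher on TWIST1, 1 (CDH18) was higher on all 4, and 0 non-clustered protocadherins were. The polarity list had 0 lower genes and the fibroblast list 2 higher ones. At 3-fold, 2 genes were higher on TWIST1, 1 was higher on all 4, 0 non-clustered protocadherins were, the catenin list had 1 lower gene and the protocadherin regulators 0 higher ones. At 1.5-fold the protocadherin regulators had 2 higher genes and the epithelial markers 1. Without FOXQ1 required, 3 genes were higher on the remaining factor arrays, PCDH7 with CDH18 and PCDH18. No paired analysis was possible because each line had 1 array. Without replicate arrays or detection calls, levels near the floor limit what can be read for the clustered protocadherins.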
